A study of Mus musculus with 6 samples.

Results

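Fibroblast growth factor (FGF) signalling was examined through 10 genes: the ligands Fgf8, Fgf15 and Fgf17, the receptors Fgfr1, Fgfr2 and Fgfr3, the feedback inhibitors Spry1 and Spry2, and the transcription factors Etv4 and Etv5. They were found by symbol in GENCODE M21 among the 48526 Ensembl genes of the deposited count table, which held all 10. All 10 also passed the low-count filter that left 20549 genes for testing. The cells were neural progenitors that had been grown from mouse embryonic stem cells for 8 days. The control group was 3 libraries from a line labelled flox/flox, where part of Dmrta2 lies between recombinase sites, and the other group was 3 libraries from a line labelled -/- for Dmrta2, a zinc finger transcription factor gene of dorsal telencephalic progenitors. Both groups had received the same medium, with the BMP receptor inhibitor LDN193189 (100 nM) and the activin and TGF-beta receptor inhibitor SB431542 (10 µM) up to day 4. It also held the Wnt pathway inhibitor XAV939 (1 µM) up to day 6 and the Hedgehog pathway inhibitor cyclopamine (1 µM) from day 2. The protocol runs cyclopamine to day 10, past the day 8 on which RNA was taken. The described medium names no added FGF. Each genotype was 1 line, so genotype and line cannot be told apart, and p-values measure only how samples of 1 line vary. On day 5 the cells had been replated for neuronal differentiation.

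FGF ligands bind receptor tyrosine kinases together with heparan sulfate, and the bound receptor activates the Ras and ERK kinase cascade. The cascade switches on ETS transcription factors of the Etv4 and Etv5 type and a set of feedback inhibitors, the Sprouty proteins and ERK phosphatases among them, so that these genes are commonly read as targets of FGF signalling. In the forebrain Fgf8, Fgf15 and Fgf17 are known from the rostral midline, where they pattern the cortex along its rostrocaudal axis, and Fgf8 and Fgf17 also from the midbrain-hindbrain boundary. Fgfr3 is known for a graded expression in cortical progenitors that is high caudally and low rostrally.

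Libraries held between 24565560 and 39646793 counts, and the table names them by genotype and a letter, A to C. Dmrta2 itself was higher in the libraries labelled -/- (421 ± 16.1 CPM, SD, n = 3) than in flox/flox (79.9 ± 5.09 CPM, SD, n = 3), where CPM is the count scaled to the TMM-adjusted library size. The count covers the whole gene and so checks nothing about the deleted part, and all directions below are those of the libraries labelled -/-. Of the 9 listed neural progenitor markers all were detected, Sox1, Sox2, Nes and Vim among them, with a summed level of 3469 to 4024 CPM in flox/flox and 3258 to 3637 CPM in -/-, and 6 rose and 3 fell. The summed level of 8 neuron markers was 1129 to 2056 CPM in flox/flox and 2456 to 4114 CPM in -/-, and 7 of the 8 rose. Pluripotency markers summed to 104 to 113 CPM in flox/flox and 62.9 to 87.6 CPM in -/-, and 3 of 7 fell. Mesoderm or endoderm markers summed to 129 to 163 CPM and 134 to 156 CPM, neural crest markers to 52.9 to 71.2 CPM and 62.4 to 118 CPM, and glial markers to 60.6 to 73.0 CPM and 73.9 to 92.5 CPM. Of these 3 lists 3 of 7, 2 of 5 and 1 of 6 tested genes rose, and 2 mesoderm or endoderm and 2 neural crest genes fell. Beside all these marker counts, 17.9% of all genes tested rose and 17.4% fell, by the threshold defined in the next paragraph. The defining neural crest marker Sox10 and the glial marker Gfap had too few reads to be tested. In bulk RNA, fewer cells of a type and less RNA per cell cannot be told apart.

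In the libraries labelled -/-, the ligands Fgf15 and Fgf17, the feedback inhibitor Spry1 and the transcription factor Etv5 fell, and the receptor Fgfr2 rose. "Rose" and "fell" here mean an adjusted p under 0.05 in edgeR's quasi-likelihood test over all genes tested. These are 5 of the 10 genes, 4 lower and 1 higher, beside 35.3% of all genes tested (17.4% lower and 17.9% higher). Fgf8, Fgfr1, Fgfr3 and Etv4 did not pass. With the column letter as a replicate block, a pairing inferred from these same counts, 9 of the 10 passed, 7 lower and 2 higher. The background was then 41.5% of all genes, 20.3% lower and 21.2% higher. The gene that did not pass in either fit was Spry2. At an unadjusted p under 0.05 8 of the 10 passed in edgeR, beside 45.4% of all genes. In 7 of the 10 genes the libraries of the groups stood apart, 2 higher and 5 lower, beside 51.0% of all genes tested (25.5% higher and 25.4% lower). Without flox/flox B 1 of the 10 was lower, and without -/- B 2 were. Without flox/flox C 5 were lower and 2 higher. The share of all genes called was not counted for fits with a library left out. These counts and the later ones of that kind thus have no background beside them.

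**Figure D1:**
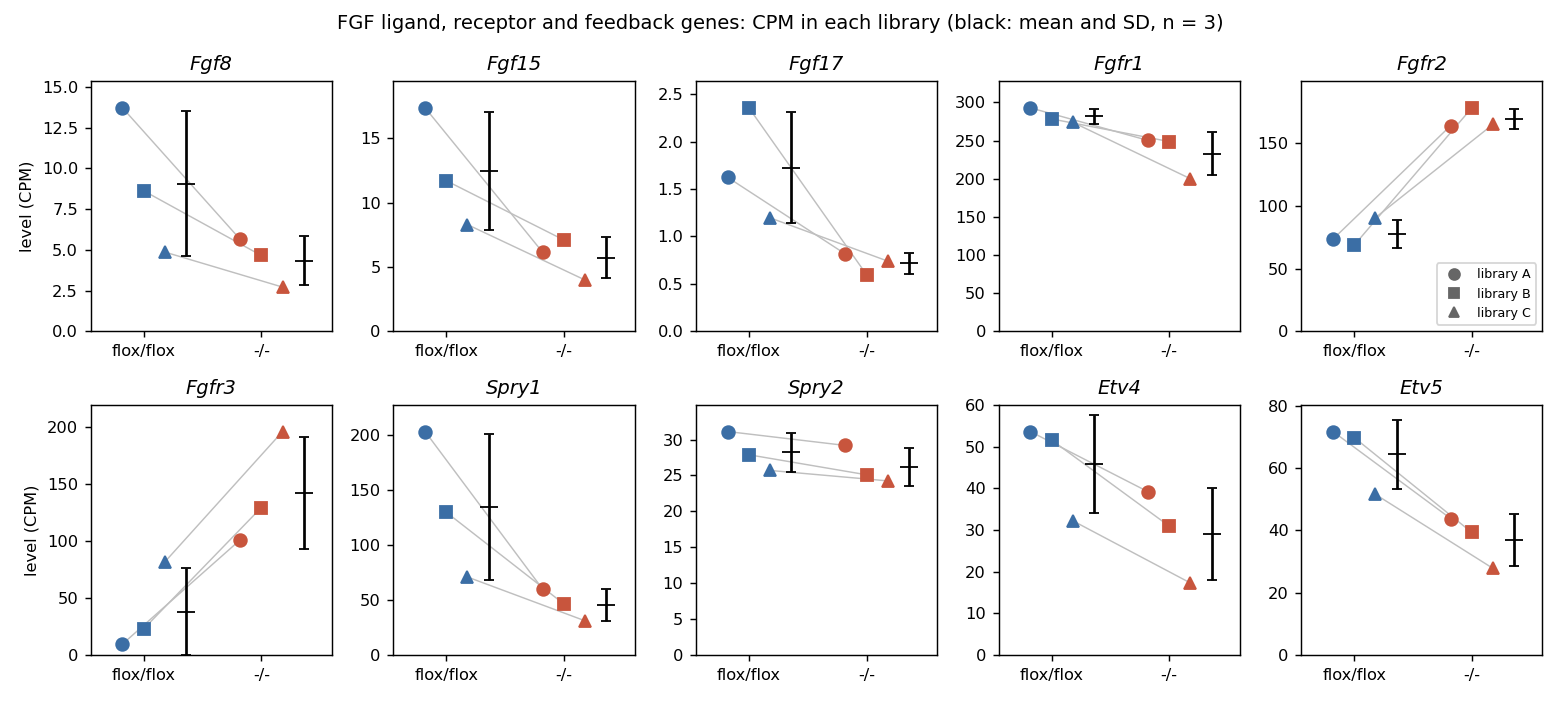
Level of each of the 10 genes in every library (CPM, linear axis from 0), with circles, squares and triangles for libraries A, B and C, grey lines joining libraries of the same letter, and black bars for the group mean and SD (n = 3). Fgfr2 and Fgfr3 are above every control in each library labelled -/-, while Fgf15, Fgf17, Fgfr1, Spry1 and Etv5 are lower in all 3.

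Among the ligands, Fgf8 encodes the organizer factor of the rostral midline and of the midbrain-hindbrain boundary. Fgf8 (ENSMUSG00000025219, GRCm38 chromosome 19 from 45736798 to 45742915 on the minus strand) measured 13.7, 8.62 and 4.86 CPM in controls A to C, against 5.64, 4.65 and 2.71 CPM in -/- A to C. The groups overlapped, because the lowest control library, flox/flox C, lay under -/- A, and the A library was the highest of each group. The fitted difference was -1.06 ± 0.40 (log2, SE), a 2.08-fold lower level, and did not pass (adjusted p = 0.0742, edgeR). In the fit blocked by letter the difference was -1.03 ± 0.13 and passed (adjusted p = 0.00125, edgeR). Without flox/flox C it was -1.35 and passed as well (adjusted p = 0.0173, edgeR), and without flox/flox A it was -0.63 (adjusted p = 0.229, edgeR).

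Fgf15, the mouse counterpart of human FGF19 and a ligand of the early forebrain and midbrain, fell. Fgf15 (ENSMUSG00000031073, chromosome 7 from 144896531 to 144900953 on the plus strand) was at 17.4, 11.7 and 8.29 CPM in controls A to C, against 6.13, 7.09 and 3.98 CPM in -/- A to C. All 3 libraries labelled -/- lay under the lowest control library. The change was -1.12 ± 0.30 (log2, SE; adjusted p = 0.0251, edgeR). The call was lost without flox/flox A (-0.80, adjusted p = 0.0650), flox/flox B (adjusted p = 0.0634), -/- A (0.0572) or -/- C (-0.91, adjusted p = 0.0586), all by edgeR. Exons of the genes Gm26793 and Gm39119 on the other strand cover 25.7% of the exonic bases of Fgf15. Gm26793 itself had 57 to 151 reads in the flox/flox libraries and 40 to 81 in those labelled -/-, and whether the counting used strand is not given in the sources used here.

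Fgf17, a close relative of Fgf8 with a later and wider expression in the same midline territories, was the scarcest member. Fgf17 (ENSMUSG00000022101, chromosome 14 from 70636203 to 70642268 on the minus strand) had 48, 62 and 30 reads in controls A to C, against 32, 21 and 21 in -/- A to C, or 1.62, 2.36 and 1.20 CPM and 0.813, 0.595 and 0.739 CPM. The 3 libraries labelled -/- were below every control library. It fell by 1.26 ± 0.29 on the log2 scale (adjusted p = 0.0137, edgeR), and the call was lost without -/- B (adjusted p = 0.0580, edgeR).

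The make-up of the ligand pool was compared by level per kilobase of exon, since levels of different genes can be set side by side only per length. The 18 secreted ligand genes summed to 27.0, 20.6 and 14.0 CPM per kb in controls A to C, against 12.2, 12.2 and 8.46 CPM per kb in -/- A to C. Fgf8 had the largest mean share of that sum in both groups, at 31.5% ± 5.99 in flox/flox and 28.7% ± 5.29 in -/- (SD, n = 3). Fgf15 made up 19.7% ± 1.25 and 16.9% ± 1.87, and Fgf17 5.13% ± 1.61 and 4.00% ± 1.14. For these 3 ligands the shares of the groups overlapped, while the summed level was lower in each library labelled -/- than in any control library. With the length of the longest transcript in place of all exonic bases, the mean share of Fgf15 was 27.3% and 23.7%.

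Of the receptor genes, Fgfr2 rose, and Fgfr1 and Fgfr3 did not pass. Fgfr1 encodes the receptor that is most widely made in neural progenitors. Fgfr1 (ENSMUSG00000031565, chromosome 8 from 25513654 to 25575718 on the plus strand) measured 293, 278 and 274 CPM in controls A to C, against 250.2, 249 and 199.96 CPM in -/- A to C, so that the groups did not overlap. Its difference of -0.27 ± 0.09 (log2, SE) was the smallest of the receptors and did not pass (adjusted p = 0.0519, edgeR). In the fit blocked by letter it passed (-0.28 ± 0.07, adjusted p = 0.0142, edgeR), as it did without -/- C (-0.17, adjusted p = 0.0488, edgeR).

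Fgfr2, whose splice forms bind different sets of FGFs, rose. Fgfr2 (ENSMUSG00000030849, chromosome 7 from 130162451 to 133123350 on the minus strand) was at 73.5, 68.6 and 90.6 CPM in controls A to C, against 164, 178 and 165 CPM in -/- A to C. The lowest library labelled -/- was well above the highest control library. The rise of 1.13 ± 0.10 (log2, SE), or 2.18-fold, had an adjusted p of 0.000534 in edgeR. It passed under each of the 15 alternatives, with values from 1.05 to 1.26. Its annotated span reaches the neighbour Ctbp2, and exons of Ctbp2 on the same strand cover 3.04% of its exonic bases.

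Fgfr3, a receptor of progenitors and later of astrocytes, varied most within the control group. Fgfr3 (ENSMUSG00000054252, chromosome 5 from 33721674 to 33737068 on the plus strand) was at 9.49, 22.8 and 81.5 CPM in controls A to C, against 101, 129 and 196 CPM in -/- A to C. The highest of the 3 control libraries was 8.59 times the lowest, where the median over 17814 genes with a mean of at least 1 CPM was 1.16 and the 95th percentile 1.96. The groups did not overlap, with flox/flox C close to -/- A. The fitted difference of 1.91 ± 0.68 (log2, SE; 95% interval 0.31 to 3.51), or 3.75-fold, did not pass (adjusted p = 0.0654, edgeR). In the fit blocked by letter it was 2.31 ± 0.36, or 4.95-fold, and passed (adjusted p = 0.00245, edgeR). Without flox/flox C it was 3.15 (adjusted p = 0.00245, edgeR), and without flox/flox A it was 1.44 (adjusted p = 0.0878, edgeR). Exons of the gene G630022F23Rik on the other strand cover 13.9% of the exonic bases of Fgfr3, and that gene had 14, 22 and 103 reads in controls A to C, against 292, 325 and 408 in -/- A to C. Their part in the Fgfr3 values was not tested.

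By level per kilobase, Fgfr1 held a smaller share of the receptor pool in the libraries labelled -/-, and Fgfr2 and Fgfr3 a larger one. Fgfr1 held 77.5%, 73.8% and 57.8% of the summed level of Fgfr1 to Fgfr4 in controls A to C, against 45.3%, 41.2% and 31.7% in -/- A to C. Fgfr3 held 3.47%, 8.34% and 23.7% in controls A to C, against 25.2%, 29.5% and 42.7% in -/- A to C. The shares of Fgfr2 were 18.1% ± 0.616 and 27.2% ± 1.91 (SD, n = 3), and Fgfr4 stayed under the others at 0.361% ± 0.131 and 0.953% ± 0.303. For none of the 4 receptors did the shares of the groups overlap. The summed level was 41.5 ± 5.64 CPM per kb in flox/flox and 60.4 ± 4.06 CPM per kb in -/- (SD, n = 3), whereas the ligand sum went the other way. With the longest transcript as length, Fgfr2 held 21.2% and 32.3%. Without flox/flox C the mean share of Fgfr3 in flox/flox was 5.90% in place of 11.8%.

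**Figure D2:**
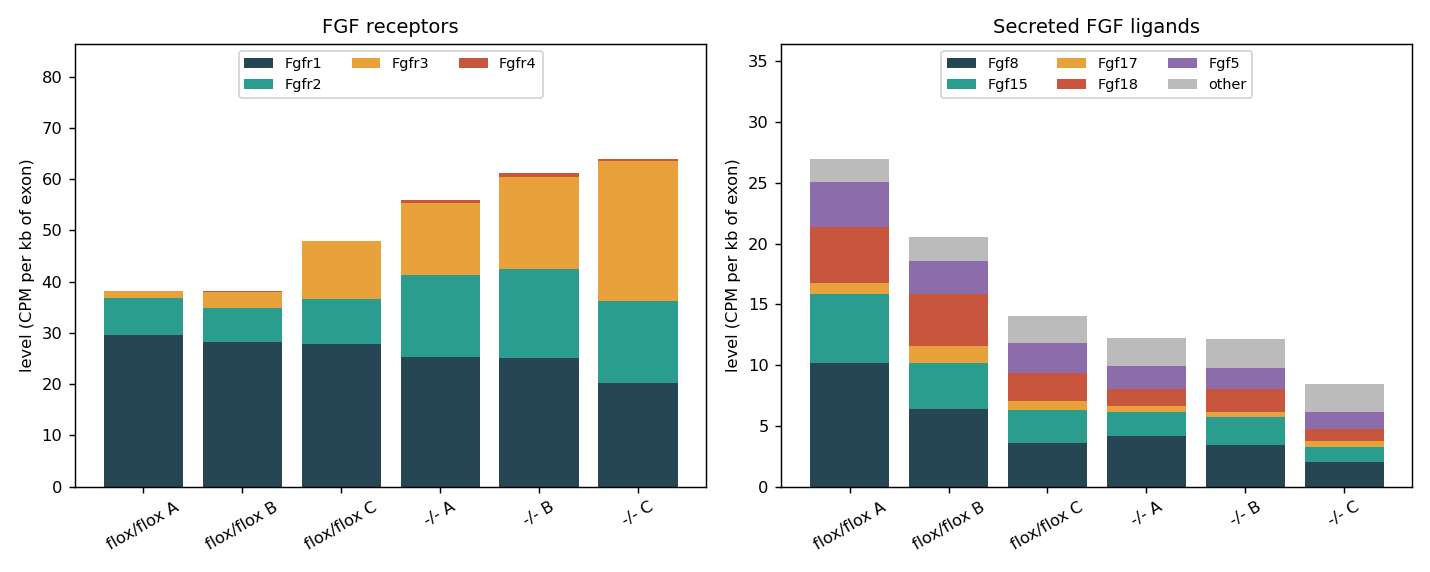
Summed level of the FGF receptor genes (left) and of the 18 secreted FGF ligand genes (right) in each library, in CPM per kb of exon, stacked by gene. The receptor sum is larger and the ligand sum smaller in each library labelled -/- than in any flox/flox library. Fgfr3 makes up 3.47% (A) to 23.7% (C) of the receptor sum in flox/flox and 25.2% (A) to 42.7% (C) in -/-.

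Of the feedback inhibitors, Spry1 fell and Spry2 did not pass. Both encode Sprouty proteins, which are induced by receptor tyrosine kinase signalling and restrain the Ras and ERK cascade. Spry1 (ENSMUSG00000037211, chromosome 3 from 37639947 to 37644598 on the plus strand) measured 203, 130 and 70.9 CPM in controls A to C, against 59.7, 46.3 and 31.0 CPM in -/- A to C. The groups did not overlap, although the highest control library was 2.87 times the lowest. The change of -1.56 ± 0.38 (log2, SE), or 2.95-fold, was the largest among the members that passed (adjusted p = 0.0174, edgeR). The call was lost without flox/flox B (-1.58, adjusted p = 0.05003) and without -/- B (-1.55, adjusted p = 0.0594). Exons of Gm42922 on the other strand cover 24.4% of the exonic bases, with 96 to 258 reads in flox/flox and 42 to 99 in -/-.

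Spry2 (ENSMUSG00000022114, chromosome 14 from 105891947 to 105896819 on the minus strand) was at 31.1, 27.9 and 25.7 CPM in controls A to C, against 29.2, 25.1 and 24.2 CPM in -/- A to C, and the groups overlapped. Its difference was -0.11 ± 0.10 (log2, SE), with a 95% interval from -0.35 to 0.13 and an adjusted p of 0.453 in edgeR. In the fit blocked by letter the interval was -0.26 to 0.04. The interval of Spry1 was -2.45 to -0.66, and whether the 2 Sprouty genes differ in their change was not tested.

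Etv4 and Etv5 encode ETS factors of the PEA3 group, which are induced by FGF signalling and pass it on to target genes. Etv5 (ENSMUSG00000013089, chromosome 16 from 22381309 to 22439719 on the minus strand) was at 71.7, 69.8 and 51.6 CPM in controls A to C, against 43.8, 39.3 and 27.8 CPM in -/- A to C, without overlap. It fell by 0.80 ± 0.19 on the log2 scale (adjusted p = 0.0144, edgeR), a call lost without flox/flox B (-0.74, adjusted p = 0.0570). Etv4 (ENSMUSG00000017724, chromosome 11 from 101769742 to 101785371 on the minus strand) was at 53.7, 51.6 and 32.2 CPM in controls A to C, against 39.2, 30.9 and 17.3 CPM in -/- A to C. Its groups overlapped, with flox/flox C below -/- A. The difference was -0.65 ± 0.30 (adjusted p = 0.137, edgeR). In the fit blocked by letter it was -0.69 ± 0.09 and passed (adjusted p = 0.00132, edgeR). Etv4 lies on chromosome 11, whose 1589 tested genes had a median log2 change of 0.49 against -0.02 for all other genes. Relative to that shift, with an offset of 0.52, Etv4 was at -1.17 (adjusted p = 0.0240, edgeR). In that fit 32.5% of all genes passed, 18.3% lower and 14.3% higher.

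**Figure D3:**
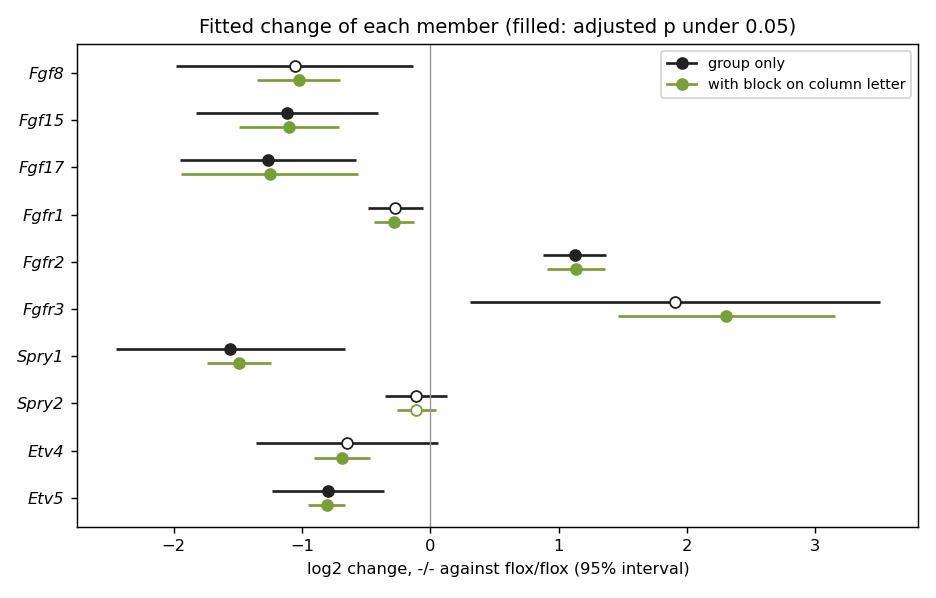
Fitted log2 change of each gene in the libraries labelled -/- against flox/flox, with its 95% interval, in the fit with the group alone (black) and in the fit blocked by letter (green); filled points have an adjusted p under 0.05. Spry2 is open in both fits, and Fgf8, Fgfr1, Fgfr3 and Etv4 are filled with the block and open without it.

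The start regions of Spry1 and Etv5, which both fell, and of Fgfr3, which differed in the other direction, are shown as the 250 bases before the start in RefSeq's table (GRCm38.p6), 5′ to 3′ on the strand of the gene. Capitals mark a match to any of 3 motifs searched on both strands: CCGGAA, a core of ETS sites, TGTATC, the core letters of a DMRT factor site, and CATCTG, an E-box read by proneural factors. The window of Spry1 is chr3:37639697-37639946, that of Etv5 chr16:22439571-22439820 and that of Fgfr3 chr5:33721474-33721723. Etv5 and Fgfr3 each have a further window, which is not shown.
Spry1: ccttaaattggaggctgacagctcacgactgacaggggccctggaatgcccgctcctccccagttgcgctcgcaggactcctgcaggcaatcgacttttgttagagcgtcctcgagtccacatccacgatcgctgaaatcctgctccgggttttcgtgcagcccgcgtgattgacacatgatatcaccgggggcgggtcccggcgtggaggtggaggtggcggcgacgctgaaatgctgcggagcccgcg
Etv5: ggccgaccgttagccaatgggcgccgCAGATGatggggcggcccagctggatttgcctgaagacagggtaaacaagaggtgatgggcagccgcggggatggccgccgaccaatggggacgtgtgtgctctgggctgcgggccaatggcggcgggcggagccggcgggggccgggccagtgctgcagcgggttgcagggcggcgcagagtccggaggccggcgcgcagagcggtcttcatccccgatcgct
Fgfr3: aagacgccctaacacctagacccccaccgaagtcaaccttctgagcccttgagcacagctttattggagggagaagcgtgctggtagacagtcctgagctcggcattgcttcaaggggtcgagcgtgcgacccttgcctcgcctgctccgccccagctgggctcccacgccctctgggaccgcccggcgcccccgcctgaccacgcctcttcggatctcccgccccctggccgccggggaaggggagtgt
Of the 10 genes 5 had entries there. The searched windows ran to 50 bases past the start, 300 bases in all. CCGGAA was found once, in Spry2, 34 bases past the start, beside 14.9% of all 32851 promoters in the table that hold it. TGTATC was in none of the windows of these genes, beside 7.30% of all promoters. CATCTG was in 1 of the 2 windows of Etv5, in the capitals above, and in that of Fgfr2, beside 17.2% of all promoters. Bases after the start of the Fgfr2 window matched no GENCODE transcript of that gene, and neither did those of the other Etv5 window. The windows shown were rich in G and C, with 64.3% in Spry1, 74.0% in Etv5 and 69.7% in Fgfr3, against a median of 52.7% over the table. A match of letters is not a measured binding site, and the windows leave out more distant elements.

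Ordered by level per kilobase in flox/flox, Spry1 stood first (46.4 ± 22.8 CPM per kb, SD, n = 3), followed by Fgfr1 (28.5 ± 1.00), Etv5 (15.7 ± 2.71), Etv4 (14.8 ± 3.81) and Spry2 (13.5 ± 1.31). Then came Fgfr2 (7.51 ± 1.11 CPM per kb), Fgf8 (6.72 ± 3.29), Fgfr3 (5.30 ± 5.35), Fgf15 (4.07 ± 1.4998) and Fgf17 (1.02 ± 0.347). Spry1 and Fgfr1 overlapped between libraries, as did Etv5, Etv4 and Spry2 as neighbours and the genes from Fgfr2 to Fgf15, while Fgfr1 was above Etv5, Spry2 above Fgfr2 and Fgf15 above Fgf17 without overlap. In the libraries labelled -/- the 3 receptors led, with Fgfr1 at 23.6 ± 2.90, Fgfr3 at 19.8 ± 6.81 and Fgfr2 at 16.4 ± 0.766 CPM per kb. Spry1 followed them at 15.7 ± 4.94 CPM per kb, and neighbours from Fgfr1 down to Etv5 overlapped. Fgf8, Fgf15 and Fgf17 were last in the same order as in the controls, at 3.21 ± 1.11, 1.87 ± 0.521 and 0.424 ± 0.0656 CPM per kb.

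Several members also varied in the same order among the libraries of each genotype. Relative to the flox/flox mean on the log2 scale, Spry1 was at 0.72, 0.08 and -0.80 in controls A to C, against -1.05, -1.41 and -1.99 in -/- A to C. Fgf8 was at 0.72, 0.05 and -0.77 and at -0.56, -0.83 and -1.60, and Fgfr3 ran the opposite way, at -1.45, -0.19 and 1.64 and at 1.95, 2.31 and 2.91. In both genotypes the C library was the lowest for Fgf8, Fgf15, Fgfr1, Spry1, Spry2, Etv4 and Etv5 and the highest for Fgfr3. The neuron markers, like Fgfr3, were highest in the C library of each genotype, opposite to the genes that were lowest there. Their mean log2 level was -0.40, -0.07 and 0.47 in controls A to C, against 0.79, 0.92 and 1.49 in -/- A to C. The neural progenitor markers were at -0.19, 0.13 and 0.06 and at 0.36, 0.33 and 0.28, higher in -/- by this mean although their summed level was not. The part of the neuron share in the differences of the FGF genes was not tested.

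**Figure D4:**
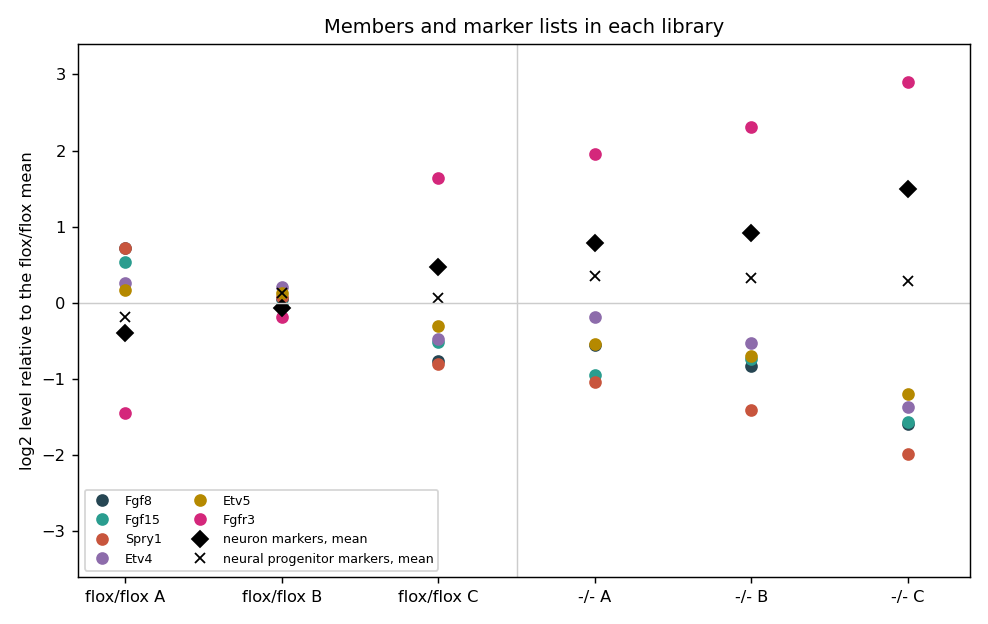
Log2 level of 6 of the genes in each library relative to the flox/flox mean (coloured points), with the mean over 8 neuron markers (black diamonds) and over 9 neural progenitor markers (crosses). In each genotype library C has the lowest Spry1 and the highest Fgfr3 and neuron marker level, and -/- C is at -1.99 for Spry1 and 2.91 for Fgfr3.

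The genes whose profile over the 6 libraries lay nearest to each ligand were found by Euclidean distance between log2 levels, each relative to its own flox/flox mean, among 11508 genes (11509 for Fgf17) with a mean of at least 5 CPM. For Fgf8 they were Col18a1, a collagen gene (distance 0.281), and Cp, the gene of ceruloplasmin (0.316), where the median gene lay at 2.20. For Fgf15 they were Gprc5c (0.215) and Prr5 (0.342). For Fgf17 they were Fgfbp3, which encodes an FGF-binding protein (0.338), and Bdnf, a neurotrophin gene (0.416).

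Beyond the 10 genes, 73 other genes of the pathway were listed by role, of which 67 had enough reads to be tested. In the libraries labelled -/- 9 of them rose and 25 fell, with a median log2 change of -0.17, beside a median of -0.0025 over all genes tested. Over all genes tested 17.9% rose and 17.4% fell, so that rises were fewer among the pathway genes than that share and falls more, and the list counts below stand beside the same shares. Blocking by letter gave 14 rises and 30 falls, beside 21.2% and 20.3% of all genes. Without -/- B 7 rose and 16 fell, with no share of all genes counted for that fit. The lists were drawn up with earlier results of these data known, so their counts describe the pathway and are no independent evidence of a direction.

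Feedback inhibitors and targets other than the members fell in 6 of 14 genes and rose in 2, with a median of -0.51. In the fit blocked by letter 8 fell and 4 rose. Dusp6, the cytoplasmic ERK phosphatase that is a standard FGF readout, was at 277, 197 and 143 CPM in controls A to C, against 109, 84.5 and 74.2 CPM in -/- A to C. The 3 libraries labelled -/- were below all controls, and the change was -1.21 ± 0.24 (log2, SE; adjusted p = 0.00775, edgeR). Spry4, another Sprouty gene, fell from 17.1 ± 1.34 to 9.41 ± 1.91 CPM (SD, n = 3), and Il17rd, the gene of the receptor antagonist Sef, added here after its values were seen, by 1.82 ± 0.37 on the log2 scale. Dusp5, a nuclear ERK phosphatase, fell 5.74-fold from 38.1 ± 9.26 CPM (22.1% of its exonic bases lie under exons on the other strand), the immediate early gene Fos 6.78-fold from 27.0 ± 12.6 CPM, and Spred3, a Sprouty-related inhibitor, 1.41-fold. Dusp4, Egr1 and Ier2, named after their values were seen, did not pass (adjusted p = 0.727, 0.319 and 0.0983, edgeR). In the fit blocked by letter Egr1 and Ier2 passed as lower (adjusted p = 0.00510 and 0.0161, edgeR). Without the block the 2 rises were Etv1, the other PEA3 factor (1.43-fold), and Spry3 (1.87-fold from 1.13 CPM), and neither was called without flox/flox B. Spred1, at 109 ± 9.92 and 120 ± 11.2 CPM, did not pass (adjusted p = 0.265, edgeR), except in the fit blocked by letter (adjusted p = 0.0491, edgeR).

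Of 15 other secreted ligands 10 were tested, 2 fell and 8 did not pass. In the fit blocked by letter or without -/- C 1 of the 8 rose, and without -/- B only 1 of the 2 falls was still called. The 2 falls are near the 17.4% of all genes that fell. Fgf18, which belongs to the subfamily of Fgf8 and Fgf17, fell from 4.41 ± 1.42 to 1.69 ± 0.510 CPM (SD, n = 3; -1.38 ± 0.31 on the log2 scale) against the upward shift of chromosome 11, on which it lies. Fgf5, a ligand known from the epiblast, fell 1.74-fold, and its call was lost without -/- B (adjusted p = 0.0523, edgeR). Fgf2, the FGF commonly added to progenitor cultures, was at 2.54 ± 0.432 and 3.72 ± 0.885 CPM (adjusted p = 0.0913, edgeR), passing in the fit blocked by letter (adjusted p = 0.0322) and without -/- C (0.0242). Fgf9, at 1.65 ± 0.438 and 1.34 ± 0.337 CPM, did not pass (adjusted p = 0.425, edgeR). The untested ligands were Fgf6, Fgf16, Fgf21, Fgf22 and Fgf23.

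The intracellular FGF homologous factors are not secreted and regulate sodium channels in neurons. Of the 4 genes 3 rose. Mean levels in controls and -/- were 1.405 ± 0.272 and 3.83 ± 0.858 CPM for Fgf12, 0.388 ± 0.136 and 1.17 ± 0.272 CPM for Fgf14, and 7.03 ± 0.200 and 14.3 ± 3.00 CPM (SD, n = 3) for Fgf11 on chromosome 11. The offset for that chromosome reduced the log2 change of Fgf11 from 1.03 to 0.51 (adjusted p = 0.0453, edgeR). Fgf13, named after its values were seen, with a log2 difference of -0.26, passed only in the fit blocked by letter (adjusted p = 0.0482, edgeR). As given above, 7 of 8 neuron markers rose beside them (5 with the chromosome 11 offset), and the part of that in these rises was not tested.

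Among 8 tested cofactors and further receptors 2 rose and 2 fell, near the 17.9% and 17.4% of all genes. In the fit blocked by letter 3 fell, the further one being Flrt3, named after its values were seen. Fgfr4 rose 3.90-fold and Klb, the beta-Klotho coreceptor for endocrine FGFs such as the product of Fgf15, 4.94-fold, both from about 0.5 CPM or less (0.514 ± 0.135 and 0.403 ± 0.240 CPM, SD, n = 3). Fgfbp1 and Fgfbp3, which encode secreted proteins that release FGFs from the matrix, fell 6.76-fold and 2.02-fold. Genes of heparan sulfate synthesis and editing fell in 7 of 12 cases, and 5 did not pass, with a median of -0.26. Sulf1, an extracellular sulfatase that removes sulfate groups from heparan sulfate and dampens FGF signalling, was at 867, 440 and 308 CPM in controls A to C, against 56.2, 47.2 and 36.5 CPM in -/- A to C. The fall of 3.53 ± 0.39 on the log2 scale, or 11.5-fold, was the largest in the pathway lists (adjusted p = 0.000822, edgeR). Its paralog Sulf2 fell 2.20-fold and Glce, an epimerase of heparan sulfate synthesis, 1.84-fold.

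In the Ras to ERK cascade, whose proteins carry the signal of many receptors, 8 of 19 genes fell and 2 rose, all by less than 2-fold, and the median was -0.12. The adaptor gene Grb2, on chromosome 11, rose by 0.69 ± 0.06 (log2, SE), which the offset for that chromosome reduced to 0.18 (adjusted p = 0.0700, edgeR). Frs3, which encodes an adaptor that couples FGF receptors to the cascade, rose 1.30-fold, a call lost when any library but -/- A was left out. Gab1, a docking protein gene, fell 1.41-fold. The number of falls was 1 without flox/flox B, 1 without -/- B, 4 without flox/flox A, 5 without flox/flox C and 4 with no low-count filter, and in the blocked fit 4 genes rose and 9 fell.

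**Figure D5:**
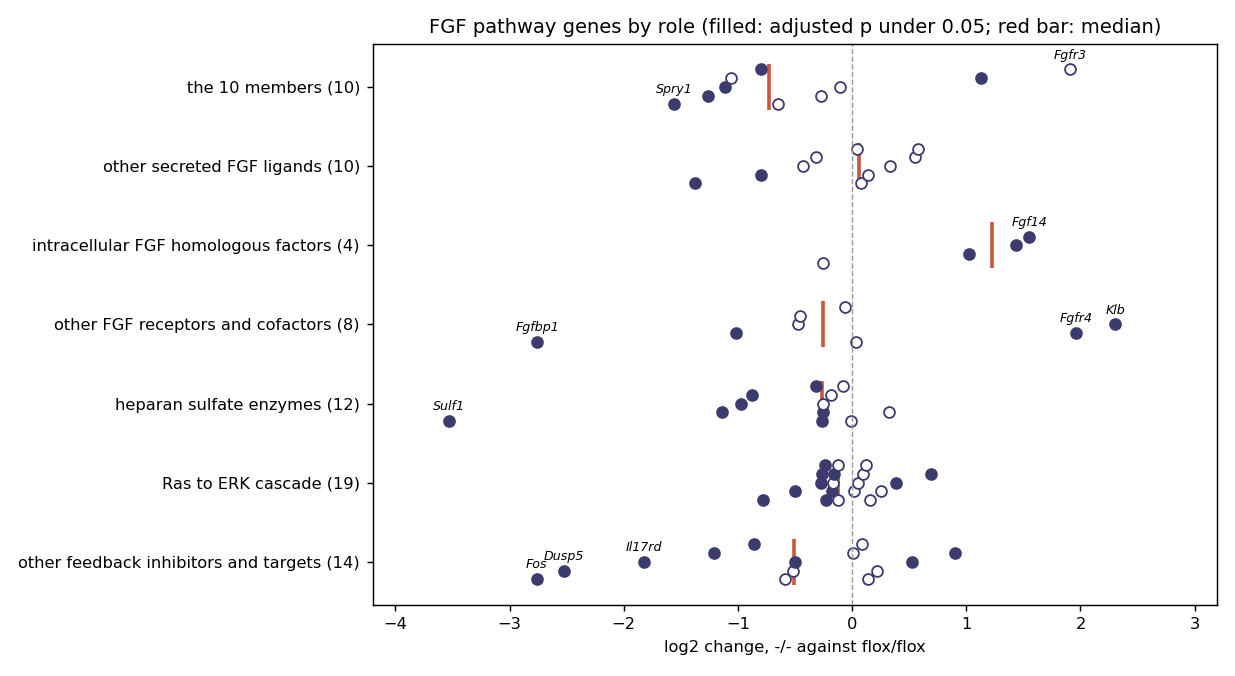
Log2 change of each tested gene in the libraries labelled -/- against flox/flox, by role, with the number of genes in brackets; filled points have an adjusted p under 0.05, red bars are list medians and the dashed line is the median of all genes tested. Sulf1 lies at -3.53, and among the feedback inhibitors and targets 6 of the 14 points are filled on the left and 2 on the right.

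Counts were also taken from 2 lists of patterning genes, for the midbrain-hindbrain boundary and the rostral telencephalon, where these ligands are known to be made. The 8 tested genes of the midbrain-hindbrain boundary had a median log2 change of -1.78. Of these 5 fell (7 in the fit blocked by letter) and 3 did not pass. Among them Pax2, En2 and Cnpy1, an FGF-regulated gene of the boundary, fell 13.1-fold, 3.91-fold and 3.81-fold. The other falls, added after their values were seen, were Pax5 (4.47-fold) and Lmx1b (1.70-fold). Of 8 genes of rostral telencephalic patterning 4 fell and 2 rose, and in the fit blocked by letter 4 fell and 3 rose. Six3 and Dlx5, named after their values were seen, did not pass (adjusted p = 0.346 and 0.161, edgeR). Dlx5 was the rise that the block added (adjusted p = 0.0229, edgeR). The list was drawn up by role in patterning and not by site of expression, so its counts do not measure the rostral territory. Sp8, which encodes an activator of Fgf8 in the rostral midline, fell 6.20-fold and Emx2 2.84-fold, and Vax1, likewise added, fell from 2.68 ± 2.15 to 0.0551 ± 0.0405 CPM (SD, n = 3). The nuclear receptor genes Nr2f1 and Nr2f2 rose 3.55-fold and 1.72-fold, from control levels of 78.1 ± 36.2 and 107 ± 29.8 CPM (SD, n = 3), and Nr2f2 was not called without flox/flox B (adjusted p = 0.0550, edgeR).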

How the data were processed

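RNA from 6 samples of neural progenitors, 3 per line, was measured by stranded mRNA sequencing. The deposited values are raw counts per Ensembl gene, which the authors made with BWA 0.5.9 and featureCounts 1.4.6 on mm10 (GRCm38), per the submitters' processing notes. The annotation release was not given in the sources used here, nor were the strand setting and the treatment of marked duplicates. Table columns carry a letter, and the labels carry numbers, which is why each column got a group but no number. Symbols and exons came from GENCODE M21 (48144 identifiers matched).

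Counts were tested in R 4.3.3 with edgeR 4.0.16 (quasi-likelihood test, filterByExpr with minimum count 10 and total 15, TMM, two-sided, group only), with Benjamini-Hochberg adjustment over 20549 genes and a threshold of 0.05. The SE is the fitted log2 change divided by the square root of its F statistic. The functions were tested on simulated data. Alternatives used DESeq2 1.42.0, limma 3.58.1 (voom), 2 other scalings, 2 other filters, a threshold of 0.01, each library left out, a chromosome 11 offset and a block on the column letter. Deviations from the group mean correlated between same-letter libraries (0.275, 0.101 and 0.264 for A, B and C) and less between others (-0.298 to 0.0316). The letters were therefore taken to pair the samples, from the data and not from the labels. The rule asked for a correlation over 0.1 in each letter, which B only just met. Deviations within a group cancel out, so the lower values between other pairs add no separate support. The same counts gave the pairing and the blocked tests, so the blocked p-values are not independent of that choice. Blocked values stand beside the calls they change for the members and for the lists other than the cell type markers.

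The members and lists were chosen with earlier results of these data known. Genes named beyond the members are those with the lowest adjusted p of a list, at most 3 in each direction, 7 further pathway genes and the 2 nearest genes of each ligand, plus a few described as named or added after their values were seen. Some genes the rule gives are not reported here by name but stay in the counts. Levels per kilobase divide CPM by the union of exons.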

Additional observations from a re-analysis of the deposited data

How the results depend on the processing

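Over the 10 members and 15 alternatives no log2 change reversed its sign. With the replicate block on the column letter 2 members were higher and 7 lower, and among the other pathway genes 14 were higher. Among the genes the naming rule gives, the block added calls for Fgf8, Fgfr1, Fgfr3, Etv4, Fgf2 and Spred1 and changed no other call. With no low-count filter or with limma-voom 2 members were higher, the added one being Fgfr3. Fgf8 passed as lower with no filter or with DESeq2, and Fgfr1 with DESeq2 or limma-voom. At a threshold of 0.01, 0 members (6 at an unadjusted p under 0.05 in edgeR, and 6 by DESeq2 and 5 by limma-voom at 0.05) and 16 other pathway genes were lower, and Fgfr2 was still called. Leaving out 1 library at a time gave 1 to 2 members higher and 1 to 5 lower, and 6 to 10 other pathway genes higher and 16 to 24 lower. The share of all genes called was counted only for the main, blocked and offset fits, so the other counts here have no background. With the longest transcript as length, mean shares were 21.2% and 32.3% for Fgfr2 and 27.3% and 23.7% for Fgf15 (flox/flox and -/-). Several called genes rest on few reads, among them Fgf17, Fgfr4, Klb, Fgf14 and Vax1. Klb had 9, 6 and 17 reads and Fgf14 15, 11 and 6 in controls A to C. Vax1 had 4, 1 and 1 reads in -/- A to C. With 3 libraries a group and 1 line per genotype, differences between lines other than Dmrta2 cannot be told apart from it.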
